A study of Ovis aries with 18 samples.

Results

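In RNA sequencing of 12 pools of sheep embryos, 15 of 20092 genes (0.0747%) spiked in a single pool. A gene was chosen when its highest pool held at least 100 CPM and at least 20 times the CPM of the second-highest pool, where CPM is the count per 1000000 counts of the pool and a second-highest value of 0 was set to 0.5 CPM. The members were thus selected on these same expression values, so their levels are given as a description, with no test. They were DENND6B, TMEM191C, GDF1, HOXA4, PKP2, CC2D1A, DDX47, POLM, CNFN, TNP1, TMEM247 and 4 genes that carry only a locus name.

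The study asked whether methionine fed to prepubertal rams affects sperm methylation and gene expression in their embryos. Polypay rams received a basal control diet or that diet with a top-dress of 1.5 g (0.22%) rumen-protected methionine, and were then bred to ewes. The control group held 6 pools from 3 control rams (2 pools each of Ram410, Ram423 and Ram444), and the methionine group held 6 pools from 3 methionine-treated rams (4 pools of Ram424 and 1 each of Ram498 and Ram511). Each pool joined 5 flushed blastocysts grouped by sire and dam, and its RNA was amplified across the whole transcriptome before sequencing. The pool names give the ram and the pool, so that Embryo423_1 is the first pool of Ram423. Pools of the same ram have their sire in common, so they are not independent by the design.

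A blastocyst consists of an inner cell mass, which forms the fetus, and an outer trophectoderm, which forms the placenta and is rich in the keratins KRT8 and KRT18. Its RNA is scarce, so libraries from small pools depend on amplification. In bulk pools of this kind, more cells that express a gene and more RNA of it per cell cannot be told apart.

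Total counts ranged from 1017847 to 2398589 per pool, and the lowest was that of Embryo511_1. Embryo511_1 (methionine) and Embryo444_2 (control) stood apart from the other 10 pools. Their median Spearman correlations with the remaining pools were 0.600 and 0.582, against 0.820 to 0.857 in the others. These were taken over the 16488 genes that had 15 or more counts in over 3 pools. The summed CPM of the 7 measured trophectoderm markers (of 10 listed) was 193 in Embryo511_1 and 269 in Embryo444_2, against 5286 to 14159 elsewhere. KRT8 and KRT18 made up most of this sum, with means of 5880 and 1228 CPM over all pools. CDX2, GATA2, TEAD4 and ELF5 had means of 33.7 to 48.2 CPM, so the sum says little of them. KRT8 was at 42.2 CPM in Embryo511_1 and 140 CPM in Embryo444_2, against 3918 to 11704 CPM in the other pools. In the same order, KRT18 was at 34.4 and 17.0 CPM against 701 to 2084 CPM. TFAP2C was at 27.5 and 59.7 CPM against 329 to 724 CPM. For POU5F1, a pluripotency factor of the inner cell mass, the values were 39.3 and 17.0 CPM against 141 to 489 CPM. Summed markers of cumulus and granulosa cells (2 of 6 listed genes measured) and of uterine epithelium (4 of 6) were 52.1 and 72.7 CPM in Embryo511_1, within the 32.2 to 95.8 and 39.8 to 97.4 CPM of those 10 pools, and 167 and 168 CPM in Embryo444_2. NANOG, also on the inner cell mass list, was at 4.47 to 16.4 CPM over all pools (median 11.4 CPM), without such a gap. The 5 measured markers (of 6 listed) of hypoblast, a further blastocyst cell type, summed to 287 and 328 CPM against 437 to 838 CPM. Of these, GATA4 was highest in Embryo511_1 (93.3 CPM), PDGFRA (199 CPM) and FOXA2 (47.7 CPM) in Embryo444_2, and GATA6 and SOX17 in other pools. KRT8, KRT18, TFAP2C and POU5F1 were therefore low in both libraries, and these genes go against their label. NANOG and some hypoblast markers were not low in both. What the libraries hold, and what part these low values have in the spikes, was not tested. The main counts are given with and without both libraries.

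The spikes were concentrated in a single library. Embryo511_1 held 10 of the 15 members: PKP2, CC2D1A, DDX47, POLM, CNFN, TNP1, TMEM247, LOC101123401, LOC114108827 and LOC114111452. Embryo423_1 held 2 members, DENND6B and TMEM191C. GDF1 spiked in Embryo410_1, HOXA4 in Embryo424_3 and LOC101117735 in Embryo498_1. The other 7 pools held 0 members, Embryo444_2 among them, although it stood apart in overall expression as far as Embryo511_1 did. By diet of the sire, 12 members spiked in methionine pools and 3 in control pools, or 2 ± 3.95 members per methionine pool (SD, n = 6) and 0.50 ± 0.84 per control pool (SD, n = 6). No test is attached to this difference, and without Embryo511_1 it was -0.10 members per pool.

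**Figure D1:**
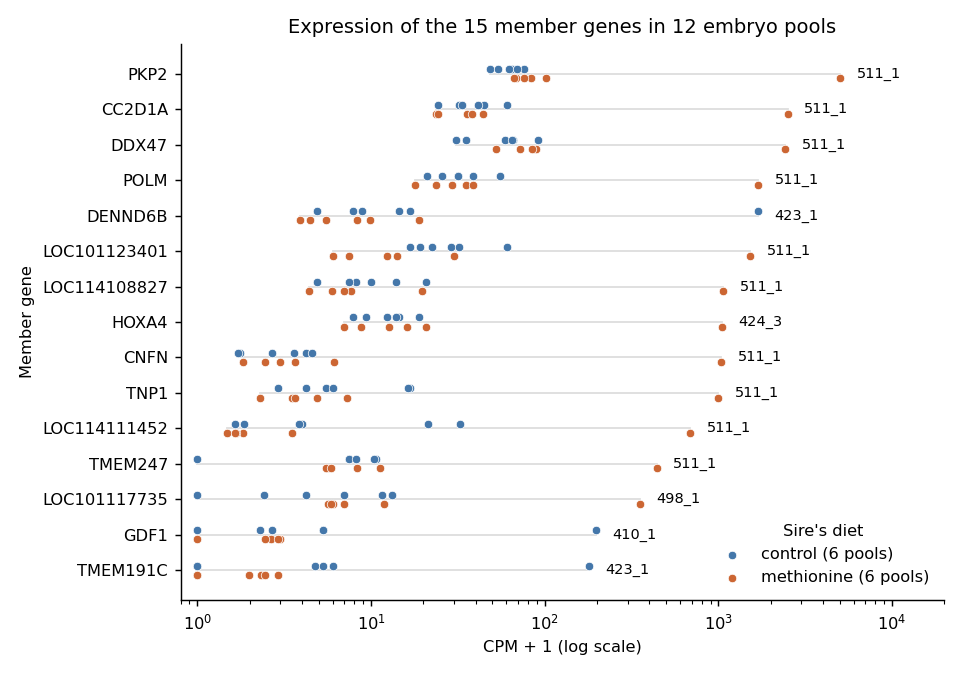
Expression of the 15 member genes (rows) in the 12 embryo pools as CPM + 1 on a log axis, with a point per pool coloured by the diet of the sire and the spiking pool written beside its point. Each gene has a single point far to the right of the other 11, and 10 of these points belong to Embryo511_1.

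Among the 6080 genes that reached 100 CPM in some pool, the ratio of the highest to the second-highest pool was usually small. Its median was 1.27 and its 99th percentile 8.76. A ratio of at least 3 was held by 510 of these genes, of at least 5 by 186 and of at least 10 by 49, while the 15 members were 0.247% of the 6080. Without Embryo511_1 and Embryo444_2 the corresponding counts were 198, 79 and 22 of 4432 genes, with a median ratio of 1.15, and 5 genes had a ratio of at least 20. The ratios of the members ran from 21.8 to 201 with a median of 42.8.

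Values close to the thresholds formed no step. Just inside the ratio threshold were LOC114111452 at 21.8, LOC101123401 at 25.5 and DDX47 at 26.8, all in Embryo511_1. Just outside were TEDC1 at 19.8 in Embryo423_2, C20H6orf15 at 19.5 in Embryo511_1 and LHX3 at 18.0 in Embryo410_2. By level, the members closest to the threshold were TMEM191C at 178 CPM, GDF1 at 195 CPM and LOC101117735 at 352 CPM. A single gene, LOC114109380, had a sufficient ratio (37.1) but too low a level, at 79.6 CPM in Embryo511_1.

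**Figure D2:**
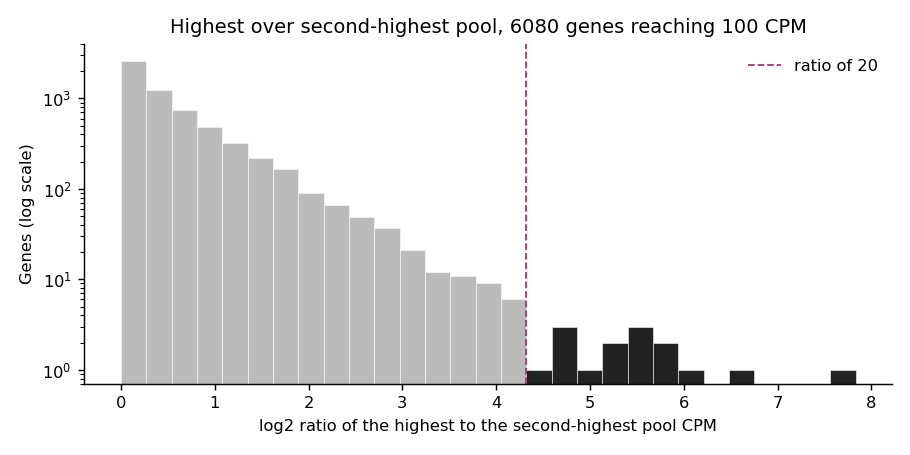
Number of genes (log axis) by the log2 ratio of the highest to the second-highest pool CPM, over the 6080 genes that reached 100 CPM in some pool. The dashed line marks the ratio of 20, and the 15 members lie in the dark bars to its right as the far end of a falling distribution.

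The same pool led at every ratio. Of the genes with a ratio of at least 3, 257 of 510 were highest in Embryo511_1 and 103 in Embryo444_2. At a ratio of at least 5 these pools held 102 and 22 of 186 genes. At a ratio of at least 10 they held 27 and 5 of 49. In contrast, Embryo444_2 was more often than Embryo511_1 the highest pool of a gene at any ratio, with 1548 against 1374 of the 6080 genes. The pools Embryo424_1, Embryo424_2 and Embryo424_4, which had the highest totals, held 0 genes with a ratio of at least 10.

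**Figure D3:**
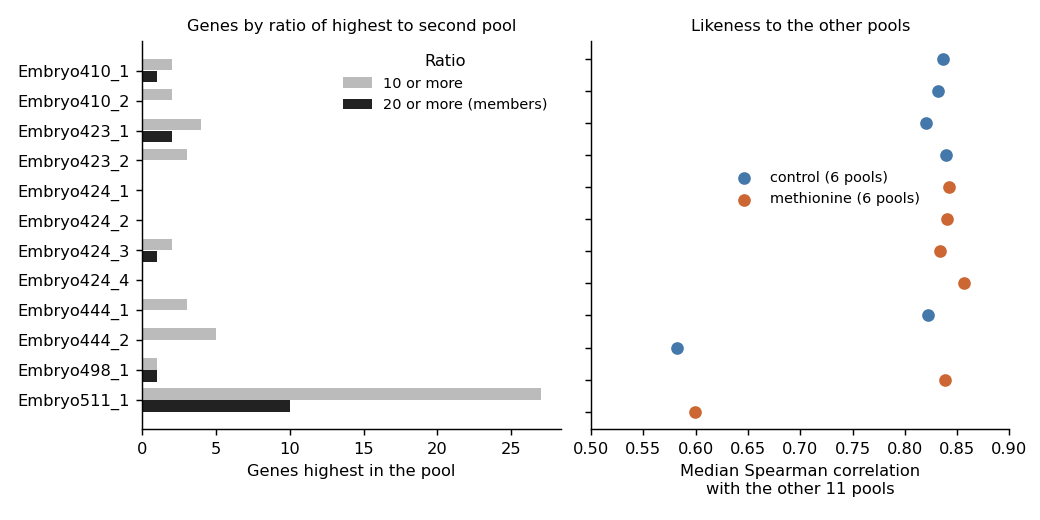
Left, number of genes whose highest pool was the one named and whose ratio to the second pool was at least 10 (grey) or at least 20 (black, the members). Right, median Spearman correlation of each pool with the other 11, where Embryo511_1 and Embryo444_2 lie near 0.6 and all others above 0.8, while only Embryo511_1 holds many members.

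DENND6B belongs to the DENN domain proteins, which switch on Rab GTPases of membrane traffic by exchanging their guanine nucleotide. It had 2615 counts in Embryo423_1, or 1682 CPM (95% Wilson interval 1619 to 1748). Such intervals cover counting error only, because copies made by amplification were not told apart by molecular identifiers. In the other control pools the values were 13.6 CPM in Embryo410_1, 15.7 in Embryo410_2, 3.90 in Embryo423_2, 7.86 in Embryo444_1 and 6.82 in Embryo444_2. In the methionine pools they ranged from 2.92 to 17.9 CPM with the highest in Embryo424_3. The Embryo423_1 value was thus 94.0 times the second-highest, and without it the range of the control pools lay within that of the methionine pools. Embryo423_2, a pool of the same ram, was lower in DENND6B than all but 2 pools.

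Related genes were examined in the same pool. Of the 19 other genes of a list of DENN domain proteins and Rab GTPases that are in the table, 0 exceeded 2 times their median of the other pools in Embryo423_1, where 5.07% of all genes did. Their median ratio was 0.858, and the highest was 1.51 for DENND2A. The 4 most abundant of them on average were RAB11A, RAB14, DENND4C and DENND5B. In Embryo423_1, RAB11A was at 270 CPM and RAB14 at 151 CPM, DENND4C at 103 CPM and DENND5B at 76.5 CPM, and each lay within the range of the other pools. DENND6A, the closest relative of DENND6B, was at 9.01 CPM in Embryo423_1 against 16.7 to 55.4 CPM in the other pools.

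TMEM191C, a transmembrane protein of little known function, was the other member of Embryo423_1. It had 276 counts there, or 178 CPM, against 0 to 4.999 CPM elsewhere. It was listed at 0 in 4 pools, Embryo423_2 among them, and a count of 0 there allows up to 1.95 CPM (3 counts).

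The 3 genes with the highest counts in Embryo511_1 were all members. PKP2 encodes plakophilin 2, a plaque protein of desmosomes, and reached 5117 counts, or 5027 CPM (95% Wilson interval 4892 to 5167). Its other methionine pools held 82.5 CPM in Embryo424_1, 100 in Embryo424_2, 74.9 in Embryo424_3, 66.9 in Embryo424_4 and 65.4 in Embryo498_1, and the control pools held 47.5 to 75.3 CPM. PKP2 was therefore an evenly expressed gene in 11 pools, and its median rank there was 3930 of 20092 genes against rank 1 in Embryo511_1.

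CC2D1A, which binds the ESCRT-III protein CHMP4 in membrane scission, ranked 2 in Embryo511_1 with 2542 counts or 2497 CPM. It lay between 22.5 and 59.7 CPM in the other 11 pools, with the highest of these in Embryo444_2. DDX47, a DEAD-box helicase of ribosomal RNA processing, ranked 3 with 2466 counts or 2423 CPM. It lay between 29.997 and 90.5 CPM elsewhere. POLM, the DNA polymerase mu of nonhomologous end joining, ranked 8 with 1685 CPM against 17.0 to 54.3 CPM. These 4 genes were the members with an intermediate level elsewhere, each with a median of at least 30 CPM in the other pools.

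The remaining members of Embryo511_1 were low in the other pools. CNFN encodes cornifelin, a protein of the cornified envelope of skin, and had the largest ratio of all members. It had 1049 counts in Embryo511_1 or 1031 CPM, and 1 to 8 counts (0.715 to 5.13 CPM) in each of the other pools, a ratio of 201 to the second-highest. TNP1 encodes a transition protein that replaces histones in spermatids, and had 999 CPM in Embryo511_1 against 1.28 to 15.7 CPM. The 2 highest of these other values were in the control pools Embryo444_1 (15.7 CPM) and Embryo444_2 (15.3 CPM).

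TMEM247, a transmembrane protein, had 439 CPM in Embryo511_1 against 0 to 10.3 CPM. LOC101123401 had 1523 CPM against 5.003 to 59.7 CPM, and RefSeq names it FCAR, a receptor of immune cells for immunoglobulin A. LOC114108827 had 1067 CPM against 3.40 to 19.6 CPM. LOC114111452 had 686 CPM. It was the most uneven of the members among the other pools, where its highest value was 36.9 times its median against at most 4.05 times in the other members. It was at 31.4 CPM in Embryo444_1 and 20.1 CPM in Embryo423_2 against at most 3.02 CPM in the remaining ones. Of the 7 listed blood markers, PTPRC and CD68 are in the table and went opposite ways in Embryo511_1. PTPRC was at 252 CPM, the highest of all pools, and CD68 at 1.96 CPM, the lowest of all pools. Their sum was 253 CPM there, 153 CPM in Embryo444_2 and 51.7 to 98.0 CPM elsewhere, and its part in the LOC101123401 spike was not tested.

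The members took up a visible share of this library. The 10 members of Embryo511_1 held 17687 of its 1017847 counts, or 1.74%, and 7 of them were among its 20 most abundant genes. In Embryo423_1 the share of its own 2 members was 0.186%, with DENND6B at rank 17, and in Embryo424_3 that of HOXA4 was 0.105%, at rank 37. Within each member, 67.6% to 96.4% of all counts over the 12 pools came from the spiking pool.

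HOXA4, a homeobox transcription factor of body patterning, spiked in Embryo424_3 with 1577 counts or 1045 CPM. The other pools of Ram424 held 15.01 CPM in Embryo424_1, 5.96 in Embryo424_2 and 11.6 in Embryo424_4. All other pools were between 6.82 and 19.6 CPM, and no pool came near the spike. GDF1, a growth factor that acts with Nodal in left-right patterning, had 259 counts or 195 CPM in Embryo410_1. It lay between 0 and 4.29 CPM in the other pools, and its second-highest value was in Embryo410_2 of the same ram. LOC101117735 had 549 counts or 352 CPM in Embryo498_1 against 0 to 12.2 CPM.

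The rule sets the spiking pool at least 20 times above every other, so a spike shared by pools of the same ram could not be a member. Of the 4 members whose ram had more than 1 pool, the second-highest pool was of that ram for 1, GDF1, and there at 4.29 CPM (6 counts). Embryo444_1, a pool of another ram, also had 6 counts of GDF1. For the other 11 members, the spiking pool was the only pool of Ram498 or Ram511, so that a pool and its ram cannot be told apart.

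By class, 4 of the 15 members (26.7%) carried only a locus name, against 23.6% of all genes and 6.78% of the genes that reached 100 CPM. The remaining classes counted were genes of the Rab cycle (1 member, DENND6B, or 6.67% against 0.513% of all genes), TMEM genes (2 members, or 13.3% against 1.14%), and histones, ribosomal proteins, zinc fingers, solute carriers, mitochondrial subunits, motor proteins and cilium proteins (0 members each). The TMEM class was not among the planned classes, and DENND6B was known as a member when the Rab class was planned. Nothing is therefore read from the shares of these classes. No class other than the locus names held more than 2 members. Of the 15, 11 were detected in all 12 pools and 9 had a median under 10 CPM in their other 11 pools.

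Partner genes of the members were counted in the spiking pool, beside the share of all genes there that exceeded 2 times their median elsewhere. That share was 18.5% in Embryo511_1, 6.79% in Embryo410_1 and 4.64% in Embryo424_3, and the lists are too short to set apart from it. These lists were drawn up after the members were known, except those of DENN and Rab genes and of sperm genes. For TNP1, 0 of the 3 other sperm and testis genes exceeded 2 times their median elsewhere, and TNP2, which acts beside TNP1, was at 0 CPM in Embryo511_1, where 3 counts would be 2.95 CPM. For POLM, 0 of 8 end joining genes did so, and for CC2D1A, 0 of 6 ESCRT-III genes. For GDF1, 0 of 5 genes of the Nodal pathway did so. For HOXA4, 2 of 10 HOXA genes did (HOXA6 at 50.4 CPM and HOXA10 at 44.4 CPM), and for neither was Embryo424_3 the highest pool.

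Other lists in Embryo511_1 held some such genes. For CNFN, 2 of 7 genes of the cornified envelope did, and SBSN, which encodes suprabasin, was at 269 CPM against 1.99 to 35.1 CPM. For PKP2, 1 of 8 desmosome genes did, PKP4 at 494 CPM against 67.1 to 136 CPM, while the desmosomal core genes DSP, JUP and DSG2 were below their median of the other pools. For DDX47, 2 of 7 helicases of ribosomal RNA processing did, DDX10 at 76.6 CPM and DHX37 at 208 CPM.

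Most genes beside a member did not share its spike. Gene order was taken from the RefSeq annotation of assembly ARS-UI_Ramb_v3.0, to which 18316 of 20092 genes (91.2%) and 14 of 15 members were matched by name. LOC114108827 was not matched. The 28 genes next to a member had a median ratio of 0.965 between the spiking pool and the median of the other 11, each with 1 CPM added. Among them, HOXA5 and LOC114114036 were at 0 CPM in every pool. LOC114111603 was at 0 CPM in the spiking pool and in the median of the others. The ratio of 1 of these genes comes from the added 1 CPM alone. Of these 28 genes, 2 (7.14%) exceeded a ratio of 2, against 14.03% of all genes when averaged over the same pools.

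Both exceptions were in Embryo511_1. LOC101110036, next to LOC114111452, was at 138 CPM there against 0.714 to 24.0 CPM in the other pools, a ratio of 38.8. NANOS3, next to CC2D1A, was at 45.2 CPM against 10.7 to 33.3 CPM. None of the 10 genes next to the 5 members that spiked in other pools exceeded a ratio of 2. CERS1, which shares its locus with GDF1, was at 7.54 CPM in Embryo410_1 against 6.43 to 97.4 CPM elsewhere. Whether counting used the strand is not given in the sources used here, so reads of overlapping genes on opposite strands cannot be told apart.

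**Figure D4:**
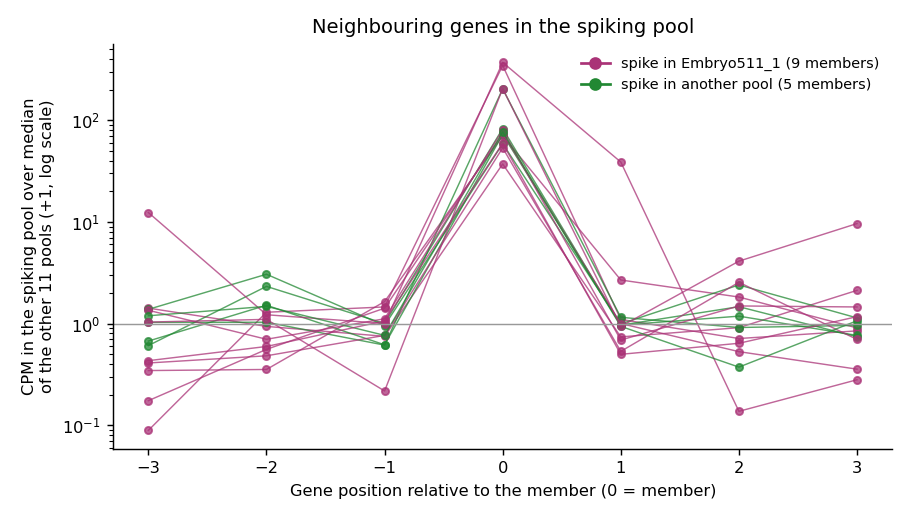
Ratio of the CPM of a gene in the spiking pool to its median in the other 11 pools (1 CPM added, log axis) for the 14 members that could be placed and the 3 genes on either side in RefSeq order. Ratios peak at position 0, the member. Of the 84 neighbours, 10 exceed a ratio of 2, with the highest at LOC101110036 (38.8) and LOC114111665 (12.4) beside LOC114111452 and at CXCR2 (9.63) near TNP1.

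Of the members, 9 entered the diet comparison. The test covered the 16488 genes that had 15 or more counts in over 3 pools, these members among them: PKP2, CC2D1A, DDX47, POLM, DENND6B, HOXA4, TNP1, LOC101123401 and LOC114108827. The other 6 (CNFN, GDF1, TMEM191C, TMEM247, LOC101117735 and LOC114111452) did not pass this filter. In the quasi-likelihood test of edgeR with Benjamini-Hochberg adjustment, 0 of 16488 genes (0%) and 0 members were called at an FDR under 0.05, and the smallest FDR of any gene was 0.584. At an unadjusted p under 0.05 there were 1306 genes (7.92%) and all 9 tested members. Without the filter the test covered 19980 genes, and the same threshold was passed by 7.90% of them and by all 15 members. The spike that made a gene a member enters this contrast, so nothing is read from these counts.

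The members were among the genes with the largest fold changes of this fit, and the spike that selected them enters these values too. DENND6B had the largest absolute log2 fold change of all 16488 genes, -5.37 ± 1.48 (SE), which is lower in methionine pools. Each SE given here was derived as the absolute log2 fold change divided by the square root of the F statistic of the test. TNP1 was in place 2 at 4.54 ± 1.48 and LOC114108827 in place 4 at 4.29 ± 1.32, and all 9 members were within the first 15. Their standard errors were 0.91 to 1.48 and their FDR 0.584 to 0.585. The biological coefficient of variation, the spread between pools beyond counting error, was 0.944 to 1.38 in these members. Its median over the tested genes was 0.408, and TNP1, DENND6B and LOC114108827 had the 3 highest values. The choice of the members by their spikes fixes a high spread, so nothing is read from it.

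The fold changes were also fitted without the spiking pool. As the rule sets that pool at least 20 times above every other, the loss of most of each fold change follows from the selection and is given as a description. DENND6B went from -5.37 to -0.27 ± 0.52 without Embryo423_1, and HOXA4 from 4.05 ± 1.20 to 0.09 ± 0.41 without Embryo424_3. Without Embryo511_1, PKP2 went from 3.92 ± 1.10 to 0.47 ± 0.22 and DDX47 from 3.08 ± 0.91 to 0.53 ± 0.28. Of these 4 values, those of DENND6B and HOXA4 were within 1 SE of 0.

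The other 5 tested members of Embryo511_1 had values below 0 without it. CC2D1A went from 3.60 ± 1.12 to -0.14 ± 0.25, POLM from 3.24 ± 1.05 to -0.13 ± 0.31 and LOC114108827 from 4.29 ± 1.32 to -0.21 ± 0.46, all within 1 SE of 0. TNP1 went to -0.96 ± 0.57 and LOC101123401 from 3.27 ± 1.22 to -1.07 ± 0.41. TNP1 had 15 or more counts in only 4 pools, Embryo511_1 among them, so it passed the filter only through its spiking pool. Over the 9 members the median absolute log2 fold change was 3.92 with all pools and 0.27 without the spiking pool of each, and 0 had an FDR under 0.05 in edgeR's quasi-likelihood test, the smallest being 0.361 for LOC101123401. At an unadjusted p under 0.05 there were 2, PKP2 and LOC101123401, both in the fit without Embryo511_1, where 11.8% of all tested genes passed it. Leaving out any of the other 11 pools moved the value of DENND6B only between -5.86 and -5.20, and that of PKP2 between 3.86 and 4.16.

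**Figure D5:**
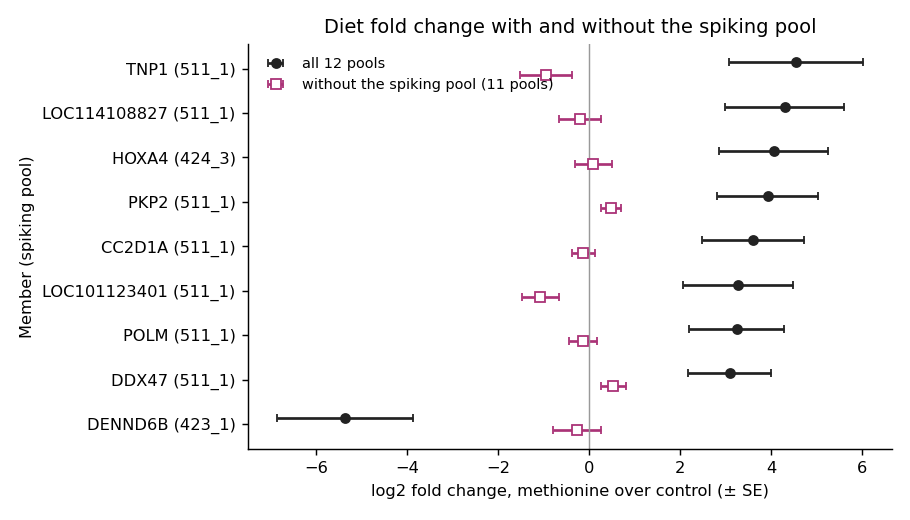
log2 fold change of the 9 tested members between diets (positive is higher in methionine pools) with its SE, from all 12 pools (filled circles) and without the spiking pool named in brackets (open squares). The SE was derived from the F statistic of each test. The filled circles lie between 3.08 and 5.37 from 0, and the open squares lie within 1.07 of 0.

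Other tests treated the same values differently. The likelihood-ratio test of edgeR called 5 of 16488 genes (0.0303%) at an FDR under 0.05, none of them a member, and DENND6B came closest among the members with an FDR of 0.0570. The study, which used this kind of test on 16979 genes, lists DENND6B as called at an FDR under 0.05. Here 16979 genes were reached with the filter at 3 or more pools, where DENND6B had an FDR of 0.0553. Both runs here therefore differ from that of the study. Without Embryo511_1 and Embryo444_2, the likelihood-ratio test here called 79 genes (0.479%), and DENND6B (FDR 0.0172) and HOXA4 (FDR 0.0459) were among them. Both kept their spiking pool in that fit. DESeq2 withheld the p-value of 315 genes (1.91%) because of an outlying pool by Cook's distance, and all 9 tested members were among these. limma on log2(CPM + 1), where a single high value weighs less, gave 5.59% of genes and 0 of the 9 members an unadjusted p under 0.05. With the ram as a random effect in limma these were 2.15% of genes and 2 members, DDX47 and PKP2, both at an FDR of 0.999986. With pools summed per ram, the quasi-likelihood test called 0 genes, and the smallest FDR was 0.999872. At an unadjusted p under 0.05 in that fit there were 572 genes (3.47%) and all 9 tested members. Their spikes enter that fit too, so nothing is read from this.

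The effect of the spikes on the normalization was small, and their effect on other genes through the fit itself was not examined. Leaving the members out of the normalization, while they stayed in the fit, lowered the effective library size by 0.152% (Embryo410_1) to 0.240% (Embryo511_1). The number of genes at an unadjusted p under 0.05 in the quasi-likelihood test was 1306 with and without them in the normalization. Leaving out the whole of Embryo511_1, by contrast, raised this number to 1952, and the smallest FDR fell to 0.262 with 0 genes called.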

How the data were processed

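Per the labels and methods of the study, the authors extracted RNA from pools of embryos, amplified it with a whole-transcriptome kit, sequenced it as single-end reads, trimmed the reads with Trimmomatic and aligned them to Oar_rambouillet_v1.0 with STAR, whose gene counting they used. The deposited table holds these raw counts for 20092 genes in 12 pools, and no column of per-sample values was left without a sample. Sperm methylation calls were not used here, since no annotation of that build was at hand to place the genes.

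CPM was the count divided by the column total, times 1000000. The members and all gene lists were chosen with earlier results of these data known. The rule for named genes took DENND6B, which the study lists between diets, the members highest in CPM or ratio, the leading member of each pool, the 3 genes on either side of each threshold and the 4 most abundant DENN and Rab genes. All 15 members fell under it, and other partners and neighbours were named after their values were seen. Diet was tested where over 3 pools had 15 or more counts, with TMM normalization and the quasi-likelihood test of edgeR 4.0.16 (R 4.3.3), with diet as the only term and an FDR of 0.05. The likelihood-ratio test that the study used (here on 16488 genes, and on 16979 with the filter at 3 or more pools), DESeq2 1.42.0 with and without outlier handling, and limma 3.58.1 were alternatives. The p-values treat pools as replicates although pools of a ram share a sire. Only the fits with the ram as a random effect or with pools summed per ram take the ram into account. The number of members per pool was to be compared between diets by an exact test, but its p is not given, since the members were chosen on these counts. The fit was tested on simulated data. Intervals are 95% Wilson intervals, and a count of 0 allows up to 3 counts, and both cover counting error only. Tables and plots were made in Python 3.11.15 with pandas 2.3.3, numpy 2.4.6, matplotlib 3.10.9 and scipy 1.17.1.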

Additional observations from a re-analysis of the deposited data

Results flagged for a closer look

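Each group of 6 pools was searched for a pool whose gap to its nearest neighbour exceeded Dixon's 95% critical value, over the CPM of the 15 members and 4 measures of the libraries. Chance marks about 1 in 20 such groups, and 23 values in 38 groups were marked. All 15 spikes were among them, which the choice of the members by such a gap fixes: 5027 CPM for PKP2, 2497 for CC2D1A, 2423 for DDX47, 1685 for POLM, 1523 for LOC101123401, 1067 for LOC114108827, 1031 for CNFN, 999 for TNP1, 686 for LOC114111452 and 439 for TMEM247 in Embryo511_1, 1682 for DENND6B and 178 for TMEM191C in Embryo423_1, 195 for GDF1 in Embryo410_1, 1045 for HOXA4 in Embryo424_3 and 352 for LOC101117735 in Embryo498_1.

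Of the other 8 values, the members per pool and both shares of counts are made of the same spikes, so the choice of the members fixes them too. LOC101123401 was at 59.7 CPM in Embryo444_2, the highest control pool. GDF1 was at 0 CPM in Embryo511_1, the lowest methionine pool, and TMEM247 at 0 CPM in Embryo410_1, the lowest control pool. A count of 0 allows up to 2.95 CPM in Embryo511_1 and 2.26 CPM in Embryo410_1 (3 counts). The other methionine pools held 1.46 to 1.99 CPM of GDF1, so counting error covers that gap. Embryo511_1 had 10 members, a median rank correlation of 0.600 with the other pools and 1.74% of its counts in the members. Embryo444_2 had a median rank correlation of 0.582, and Embryo423_1 had 0.207% of its counts in the members.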

How the results depend on the processing

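The number of members depended mainly on the ratio threshold and on Embryo511_1. It was 49 at a ratio of at least 10 and 6 at a ratio of at least 50, and 13 to 16 with other CPM thresholds, TMM-normalized CPM or 0.5 counts in place of 0. Without a single pool it was 5 to 19, the lowest without Embryo511_1, and it was 5 without Embryo511_1 and Embryo444_2, a setting chosen after the data were seen. The difference in members per pool (1.50 more in methionine pools) ran from -0.10 to 2.10 when a pool was left out, negative only without Embryo511_1, and was -0.20 without both of these pools. With the mean per ram as the unit it was 3.25 (3.75 against 0.50).

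Between diets, edgeR's quasi-likelihood test called 0 genes under each filter, normalization and single pool left out. The likelihood-ratio test called 5 (C20H6orf136, CERS1, HRC, LOC114111604 and UNC93A), and 6 with at least 15 counts in at least 3 pools (16979 genes), where DENND6B had an FDR of 0.0553. DESeq2 called 16 with and 16 without outlier handling, and the quasi-likelihood fit without Embryo511_1 and Embryo444_2 called 1 (MROH5, FDR 0.0425). Without both pools, the likelihood-ratio test called 79 and DESeq2 107. The settings without both pools, that of 16979 genes and the names were chosen after the values were seen. Members were called only by the likelihood-ratio test without both pools (2, DENND6B and HOXA4), where DESeq2 gave neither a p-value. The log2 fold changes of 5 members took the other sign when a pool was left out. Their ranges were -0.14 to 3.86 for CC2D1A, -0.13 to 3.49 for POLM, -0.21 to 4.56 for LOC114108827, -0.96 to 4.92 for TNP1 and -1.07 to 3.53 for LOC101123401, each negative only without Embryo511_1. Without both pools they were -0.038 for CC2D1A, -0.24 for POLM, -0.72 for TNP1, -0.83 for LOC101123401 and 0.01 for LOC114108827 in the quasi-likelihood test, -0.038, -0.24, -0.727 and -0.83 for the first 4 in the likelihood-ratio test, and -0.033, -0.233, -0.733 and -0.83 in DESeq2. The median ratio of neighbouring genes was 0.965, and 0.979 with 2 genes on either side.

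No paired analysis was possible because the pool numbers shared by the diets only number the pools within a ram. Sperm methylation near the members, planned with 2 coverage and window settings, was not run for lack of an annotation of the build. The members rest on single pools without a repeat library, so no value here gives the error of a spike.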
